A study of Callithrix jacchus with 3 samples.

Results

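Entries annotated as transposon in the RNA-seq table of the adult common marmoset testis were examined. The members are all entries whose annotation column reads transposon, 161 of the 18365 entries of the table. The choice used the annotation alone and no expression value. The common marmoset (Callithrix jacchus) is a small monkey of the Americas, and its wild-type testis gave the 3 datasets of the series, of which RNA-seq of total RNA is used here. For RNA-seq the labels state 2 replicates and the ages 41 and 51 months, and 1 column of values was deposited. No value therefore has a replicate error, no test was made, and the ages cannot be compared. Values are RPKM (reads scaled to transcript length and to the number of mapped reads), a scaling meant to set entries of different length side by side. The length used for each entry is not given, and the depth behind the values is unknown.

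Transposons are mobile DNA elements. Retrotransposons move through an RNA copy that a reverse transcriptase turns back into DNA, and the same enzyme can copy the mRNA of a cellular gene and leave an intronless retrocopy elsewhere in the genome. Germ cells hold transposons in check with PIWI proteins and their piRNAs and with DNA methylation, and retrocopies of cellular genes are known to be transcribed in mammalian testis. Ensembl, whose accessions the table uses, has carried a gene class for retrotransposed copies, and the table does not say which kind of sequence its word transposon stands for.

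The label was checked against the entries. None of the 161 had a common name in the table, so no entry could be tied to a transposon family. By gene ID, 2 matched a symbol in the Ensembl name table, and both symbols belong to cellular genes. ENSCJAG00000023418 matched IFT20, a protein of the transport system inside cilia and flagella, and stood at 42.3 RPKM. ENSCJAG00000023299 matched MTAP, an enzyme of the methionine salvage pathway, and stood at 0.577 RPKM.

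Neither of these entries lay where RefSeq places the gene of that name. The IFT20 entry was on chromosome 4 (chr4:9025498-9025899, minus strand), whereas TNFAIP1 and TMEM97, neighbours of IFT20 in the RefSeq gene order, were on chromosome 5 of the table at 1.78 and 1.87 RPKM. Its own nearest named protein_coding entry was MBOAT1, 597010 bases away. The MTAP entry was on chromosome 11 (chr11:130218093-130218941, minus strand), 34456 bases from B4GALNT4, while DMRTA1 and ELAVL2, neighbours of MTAP in the RefSeq order, were on chromosome 1 of the table. The table had 0 protein_coding entries named IFT20 or MTAP, so the levels of these entries could not be set beside those of the genes they are named for. The other 159 entries had no name, and they are called here transposon entries after the table's own word.

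The spans of most entries were multiples of 3 bases, the length of a codon. Whether the entries are open reading frames was not tested, since no sequence was at hand. Counted from start to end, the span was a multiple of 3 bases in 152 of 161 transposon entries (94.4%), against 34.8% of protein_coding, 24.9% of pseudogene and 49.8% of misc_RNA entries. Among protein_coding entries no longer than the longest transposon entry the share was 46.9%. Spans ran from 141 to 2010 bases with a median of 525. The IFT20 entry spanned 402 bases, the length of 134 codons, and the MTAP entry 849 bases, the length of 283 codons. The shortest entries were ENSCJAG00000001962 with 141 bases, ENSCJAG00000022101 with 192 and ENSCJAG00000022154 with 195. The longest were ENSCJAG00000022643 with 2010 bases, ENSCJAG00000031141 with 1794 and PR0009.204195 with 1707.

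Transposon entries were about as often at 1 RPKM or more as the entries of the table as a whole, and more often than short protein-coding or pseudogene entries. Of 161 entries 98 (60.9%) were at 1 RPKM or more, against 59.8% of all 18365 entries and 60.6% of protein_coding entries, so this count stands at the background. The median was 2.92 RPKM with quartiles of 0.235 and 12.3 RPKM, against a protein_coding median of 1.80 RPKM with quartiles of 0.356 and 6.17 RPKM. Transposon entries were thus more spread out at both ends. Among them 15.5% were under 0.1 RPKM and 25.5% between 10 and 100 RPKM, against 12.1% and 15.4% of protein_coding entries.

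The comparison with classes of shorter span was different. Protein_coding entries with a span up to 2010 bases had a median of 0.603 RPKM with 43.4% at 1 RPKM or more. Pseudogene entries had a median of 0.568 RPKM with 41.0% at that level. Their median spans, 1070 and 824 bases, were longer than the 525 bases of transposon entries, so neither set was matched for span. The structural small RNA classes lay above the transposon entries, with medians of 22.2 RPKM for snRNA and 260.2 RPKM for snoRNA. No entry of the table is listed at 0, so these are levels of listed entries and not of all annotated copies.

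**Figure D1:**
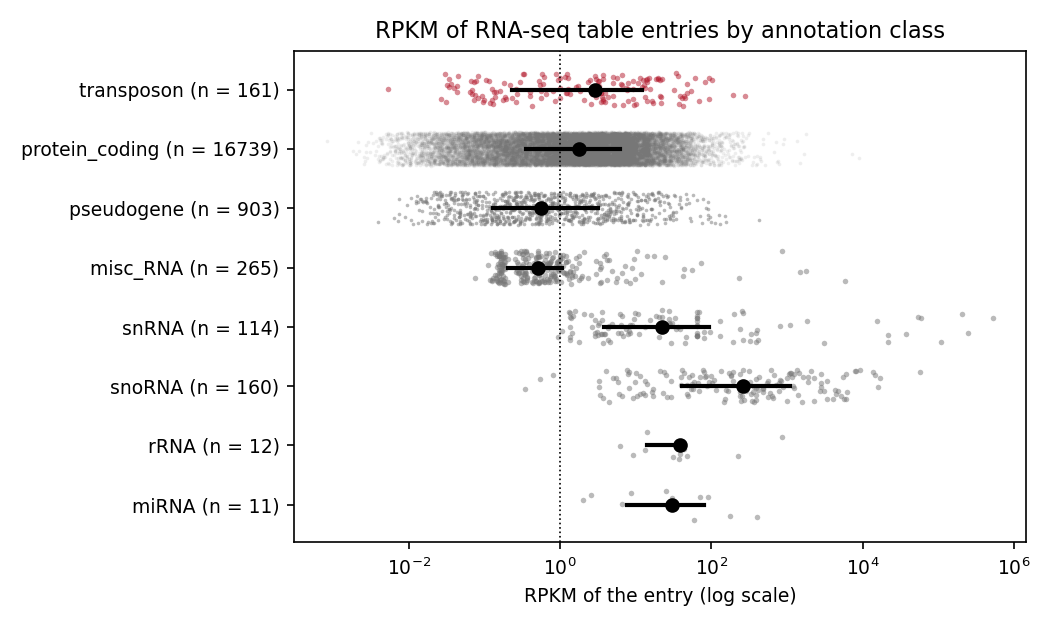
RPKM (log scale) of each entry by annotation class, 1 point per entry, with the median as a black dot and the quartiles as a black bar; the dotted line marks 1 RPKM. The 161 transposon entries, at the top, have a median of 2.92 RPKM, between protein_coding at 1.80 and snRNA at 22.2.

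A few entries held most of the summed RPKM. RPKM is scaled by length, so a share of this sum is not a share of reads. The summed RPKM of all 161 was 2092, of which the 10 highest made up 51.3% and the 20 highest 70.3%. The highest was ENSCJAG00000023313 at 280.1 RPKM, 207 bases on the plus strand of the X chromosome (chrX:16383929-16384135). It lay 118799 bases from the nearest protein_coding entry of another gene accession. It alone was 13.4% of the sum. The next, PR0009.318325, stood at 192 RPKM over 465 bases (chr5:143502968-143503432, plus strand), 138966 bases from a protein_coding entry of another accession. Next came ENSCJAG00000033633 at 102 RPKM (chr9:78826870-78827166, minus strand). These 3 were the entries above 100 RPKM.

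Places 4 to 10 were held by entries of 195 to 462 bases. PR0009.383139 stood at 93.0 RPKM on chromosome 8 and ENSCJAG00000022154 at 92.8 RPKM on chromosome 16. ENSCJAG00000022653, at 81.7 RPKM, was the only listed entry of its contig, so its neighbours are not known. The remaining ones were PR0009.74369 at 68.0, PR0009.117143 at 60.5, ENSCJAG00000022365 at 54.3 and ENSCJAG00000022189 at 48.2 RPKM. The 10 highest entries were thus all short, and they came from 10 different chromosomes or contigs.

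At the other end, the lowest entry was ENSCJAG00000021974 at 0.00539 RPKM over 1390 bases of a contig. It was followed by ENSCJAG00000022202 at 0.0269, ENSCJAG00000023046 at 0.0298, ENSCJAG00000021724 at 0.0316 and ENSCJAG00000022201 at 0.0319 RPKM. Of these 5, 2 lay on contigs and had spans that are not a multiple of 3. The 9 entries with such spans had a median of 2.07 RPKM, and the 152 others one of 2.95 RPKM.

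Across all 161 entries RPKM and span were hardly related, with a Spearman rho of -0.0818. RPKM is itself divided by length, so the measures share a term, and entries are not replicates. With the entries split by span into 3 sets of like size, the shortest set had a median of 3.67 RPKM, the middle set 1.01 RPKM and the longest set 2.76 RPKM. The 9 highest values all came from spans of up to 465 bases, but the longest set still held entries such as PR0009.359141, at 47.4 RPKM over 1176 bases.

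**Figure D2:**
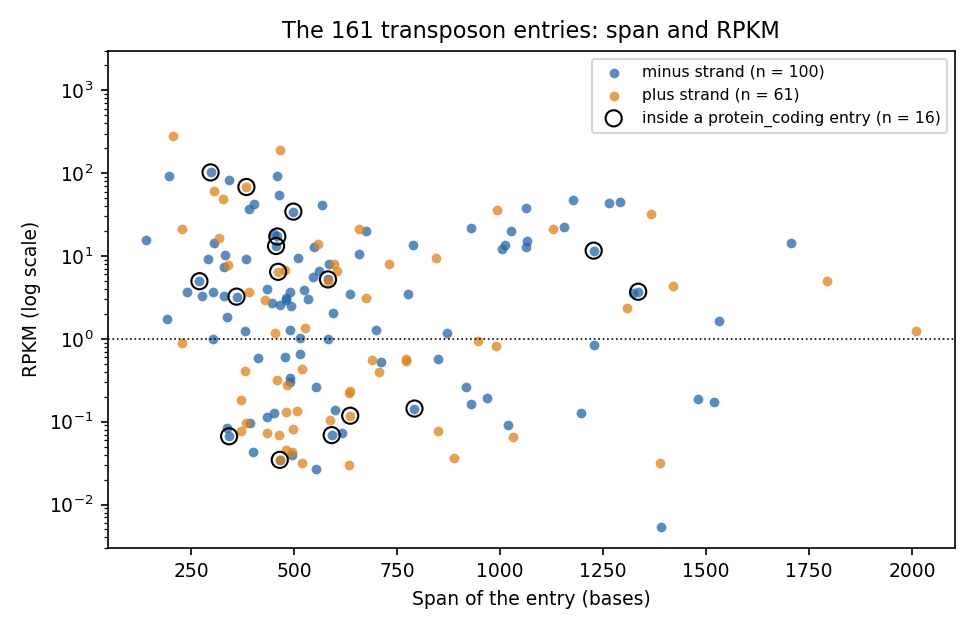
RPKM (log scale) against span in bases for the 161 transposon entries, minus strand in blue, plus strand in orange, with a black ring around the 16 that lie inside a protein_coding entry; the dotted line marks 1 RPKM. Short and long entries lie on both sides of the line, and the highest one, at 280.1 RPKM, spans 207 bases.

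The strands were unequal in number and in level. The minus strand held 100 entries and the plus strand 61, so 62.1% were on the minus strand, against 49.4% of protein_coding, 48.1% of pseudogene and 49.4% of misc_RNA entries. More minus than plus entries were found on 15 of the 23 assembled chromosomes with an entry, fewer on 4 and as many on 4. Minus-strand entries had a median of 3.38 RPKM with 69 of 100 at 1 RPKM or more. Plus-strand entries had a median of 0.900 RPKM with 29 of 61 (47.5%) at that level.

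The strands were closer in the 2 larger classes for which levels were taken by strand. Minus-strand and plus-strand protein_coding entries had medians of 1.79 and 1.81 RPKM, and pseudogene entries of 0.529 and 0.621 RPKM. Transposon entries under 0.1 RPKM were 11.0% of the minus and 23.0% of the plus strand. Entries between 10 and 100 RPKM were 31.0% of the minus and 16.4% of the plus strand, while the 2 highest entries were on the plus strand. Spans were alike, with a median of 519 bases on the minus and 526 on the plus strand. Per the labels the libraries were directional, so the strand of a read was kept. Whether reads were also counted by strand for the RPKM values was not checked. With 1 column of values the difference between the strands could not be tested.

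**Figure D3:**
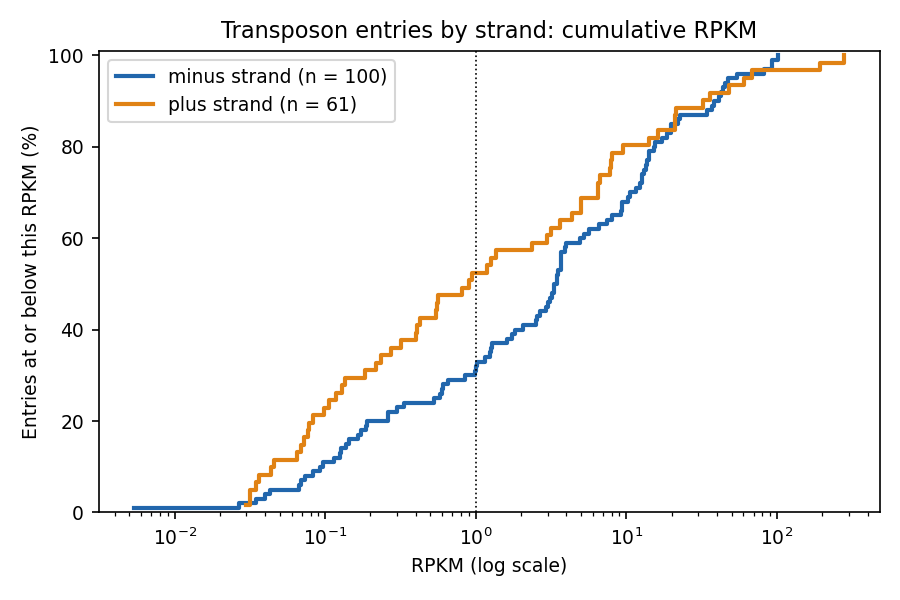
Cumulative share (%) of transposon entries at or below each RPKM (log scale) for the 100 entries of the minus strand (blue) and the 61 of the plus strand (orange); the dotted line marks 1 RPKM. At that line 31.0% of minus-strand and 52.5% of plus-strand entries lie below, and the curves meet between 10 and 100 RPKM.

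Entries were spread over the genome. Assembled chromosomes held 151 of them, all but chromosome 21 among 24, and 10 contigs held 1 each. Chromosome 1 had the most, 15 entries from 0.0400 to 14.2 RPKM with a median of 3.54 RPKM. Relative to the protein_coding entries of the same chromosome, the X chromosome (14 entries, 2.20 per 100 protein_coding entries) and chromosome 14 (12 entries, 2.06 per 100) were the highest of the autosomes and X, and chromosome 18 (1 entry, 0.209 per 100) the lowest with an entry.

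The X chromosome held 8.70% of transposon entries and 3.81% of protein_coding entries. Its 14 entries ran from 0.0739 to 280.1 RPKM with a median of 1.78 RPKM, 8 of them at 1 RPKM or more, and were split evenly between the strands. Chromosome Y had 2 entries beside 17 protein_coding ones, PR0009.429286 at 19.8 RPKM and ENSCJAG00000034662 at 3.45 RPKM, both on the minus strand and 75112 bases apart. Chromosome 8, with 6 entries, had a median of 21.2 RPKM, and chromosome 4, with 7, a median of 0.137 RPKM. Few entries lay close to each other, and 4 were within 50 kb of another transposon entry. The closest pair was PR0009.238983 at 0.607 RPKM and ENSCJAG00000022851 at 0.0365 RPKM on chromosome 22, 25357 bases apart. The other was ENSCJAG00000022896 at 9.31 RPKM and ENSCJAG00000032054 at 0.114 RPKM on chromosome 3, 32627 bases apart.

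Where the entries lay relative to protein-coding genes was examined next. All 16 entries that lay inside a protein_coding entry of another gene accession were on the strand opposite to it, and 0 were on its strand. Protein_coding entries with the same accession as the transposon entry were left out, so overlaps with those were not counted. No transposon entry overlapped a protein_coding entry of another accession in part. Among the 1465 entries of the 6 other classes that are not protein_coding, 20.9% were inside a protein_coding entry on the same strand and 5.60% on the opposite strand. The share of transposon entries was 0% on the same strand and 9.94% on the opposite strand.

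Each of the 6 other classes had more entries inside on the same strand than on the opposite one. Pseudogenes had 102 on the same and 52 on the opposite strand of 903 entries, misc_RNA 93 and 14 of 265, and snoRNA, whose members are often processed from introns, 77 and 5 of 160. The 1722 protein_coding entries with spans up to 2010 bases had 92 on the same and 122 on the opposite strand of another gene. An entry inside another gene could be exonic or intronic, which the table, without exon positions, does not show.

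**Figure D4:**
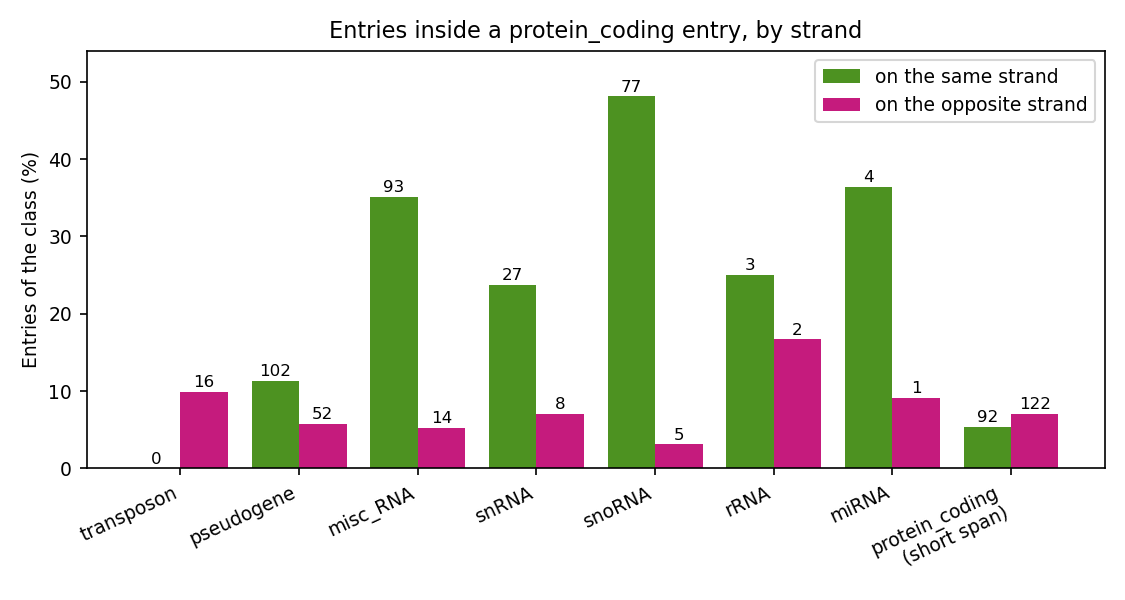
Share (%) of the entries of each class that lie wholly inside a protein_coding entry on the same strand (green) or on the opposite strand (magenta), with the number of entries above each bar; the last class is protein_coding entries with spans up to 2010 bases inside another gene. Transposon entries have 0 on the same and 16 on the opposite strand. Protein_coding entries with the gene accession of the entry itself are not counted.

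The levels of the 16 entries inside genes left a gap, which was seen after the values were known. From the highest down, 11 were at 3.23 to 102 RPKM and 5 at 0.0346 to 0.144 RPKM, with none between. Entries outside genes did lie in that range. The median of the 16 was 5.08 RPKM and that of the genes around them 2.41 RPKM (0.0616 to 13.9). The 145 entries outside genes had a median of 2.50 RPKM. Of the 16, 9 were higher than the gene around them and 7 lower. The log2 ratio of entry to gene had a median of 1.08 and ran from -6.06 to 8.12. Levels of entry and gene showed no common order (Spearman rho -0.0912 over 16 pairs, all from the same table). Whether the RPKM values kept reads of the opposite strand apart was not checked.

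The highest entry inside a gene was ENSCJAG00000033633, at 102 RPKM, in POC1B, which encodes a centriole protein and stood at 1.82 RPKM. PR0009.74369 (chr11:119049300-119049683, plus strand), at 68.0 RPKM, lay in a gene listed as LOC100404316, at 3.49 RPKM. ENSCJAG00000021825, at 34.3 RPKM, lay in GABRG3, a subunit of the GABA-A receptor, at 5.65 RPKM, 48075 bases from the start of that gene and 481120 from its end. These 3 were above their genes by 56.1-fold, 19.5-fold and 6.07-fold. LOC100404316 has 5 entries in the table, and with these summed it stood at 53.8 RPKM, so that the log2 ratio was 0.34 in place of 4.28.

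Ratios above 20-fold were also found in 2 genes at lower levels. PR0009.381430 (chr8:62795760-62796218, minus strand) stood at 17.2 RPKM in SEMA3D, a secreted guidance protein, at 0.0616 RPKM, a 279-fold difference. PR0009.425176 (chrX:69086474-69087700, minus strand) stood at 11.6 RPKM in ATP7A, a copper transporter, at 0.456 RPKM, a 25.4-fold difference. PR0009.41372, at 13.2 RPKM, lay in OXA1L, which inserts proteins into the inner mitochondrial membrane, at 2.47 RPKM. This gene had the smallest span of the 16, 8228 bases, so the entry was 4251 bases from its start and 3521 from its end.

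Entries near the level of their gene were ENSCJAG00000021900 at 3.70 RPKM in NMU, the gene of the peptide neuromedin U, at 2.34 RPKM, and ENSCJAG00000022100 at 5.21 RPKM in NFAT5, a transcription factor of the osmotic response, at 1.85 RPKM. PR0009.409799 stood at 3.23 RPKM in the zinc finger gene ZNF268, at 1.05 RPKM. In GLG1, a Golgi glycoprotein, the entry PR0009.224369 was at 6.44 RPKM and the gene at 13.9 RPKM. In ZGPAT, a zinc finger protein, ENSCJAG00000022378 was at 4.96 RPKM and the gene at 11.2 RPKM.

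The 5 low entries all lay below their genes, by 12.4-fold or more. PR0009.16689 stood at 0.0666 RPKM in JAK2, a kinase of cytokine receptors, at 4.45 RPKM, which was 66.9-fold higher. ENSCJAG00000022251 stood at 0.0346 RPKM in ZNF420 at 1.97 RPKM, and PR0009.358598 at 0.144 RPKM in MAST2, a microtubule-associated kinase, at 7.81 RPKM. ENSCJAG00000017330 was at 0.118 RPKM in a gene listed as B0KWA5_CALJA, at 5.48 RPKM. ENSCJAG00000021869 was at 0.0688 RPKM in SCFD2, a protein of the Sec1 family, at 0.856 RPKM. ZNF420 and POC1B, at 1.97 and 1.82 RPKM, thus held the lowest and the highest of the 16 entries. With its 4 entries summed, ZNF420 stood at 14.6 RPKM, and the log2 ratio of transposon entry to gene was -8.72 in place of -5.83.

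**Figure D5:**
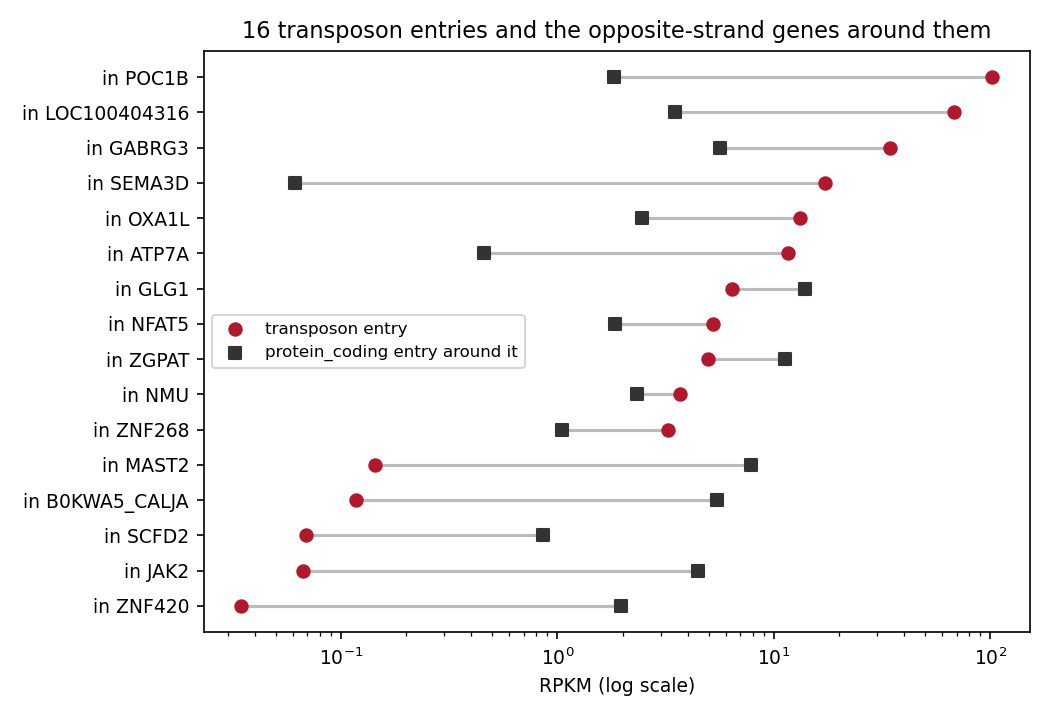
RPKM (log scale) of the 16 transposon entries that lie inside a protein_coding entry (red circles) and of that protein_coding entry on the opposite strand (black squares), joined by a line and ordered by the transposon entry's RPKM from the top. The red circles lie at 3.23 RPKM or more in 11 rows and at 0.144 or less in 5, while the squares are between 0.0616 and 13.9 RPKM.

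Beside genes the strands were more even. Without overlap and within 10 kb of a protein_coding entry of another gene accession lay 24 transposon entries (14.9%). Of these, 10 (6.21%) had such a neighbour on their own strand and 16 (9.94%) on the opposite strand, 2 having both. The shares among the 6 other classes were 7.78% and 8.94%. The 24 entries had a median of 2.34 RPKM and their nearest neighbours one of 1.29 RPKM. Entries with a neighbour on their own strand alone had a median of 5.54 RPKM (8 entries, 0.320 to 35.9), and those with one on the opposite strand alone a median of 0.893 RPKM (14 entries, 0.0346 to 54.3), with ranges that overlap.

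Of the 24 entries, 13 were higher than their nearest neighbour and 11 lower, with log2 ratios of entry to neighbour from -8.60 to 9.40 and a median of 0.29. With neighbours at 1 RPKM or more alone, which left 15 entries, the median was -1.01. Where the nearest neighbour was on the same strand, the entry was above it in 6 of 9 cases, 4 of the 9 lying upstream and 5 downstream of it. Where it was on the opposite strand, the entry was above it in 7 of 15 cases, 9 of the 15 lying upstream and 6 downstream.

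The 5 highest entries with a neighbour on their own strand lay next to genes at 0.0317 to 2.76 RPKM. ENSCJAG00000022809 stood at 41.0 RPKM on the X chromosome, 4249 bases downstream of a gene listed as B0KWV8_CALJA, at 0.0609 RPKM. It also had an opposite-strand neighbour within 10 kb. ENSCJAG00000034075 stood at 35.9 RPKM, 6579 bases downstream of RILPL2, a protein of ciliary transport, at 1.66 RPKM. ENSCJAG00000001962 stood at 15.6 RPKM, 242 bases upstream of the unnamed ENSCJAG00000010610, at 0.0317 RPKM. ENSCJAG00000007390 was at 12.7 RPKM, 9205 bases upstream of the mRNA decapping gene DCP1A, at 2.76 RPKM. ENSCJAG00000033546, at 7.76 RPKM, was 9869 bases downstream of CP2DJ_CALJA, at 0.222 RPKM. Each of these 5 entries was above its neighbour, but they were chosen for their high level. Over all nearest neighbours on the same strand it was 6 of 9.

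On the opposite strand, ENSCJAG00000022365 stood at 54.3 RPKM, 7595 bases upstream of SLC25A38, a mitochondrial carrier, at 2.05 RPKM. PR0009.312035 stood at 18.5 RPKM, 1812 bases upstream of TM4SF5 at 1.02 RPKM, and ENSCJAG00000022849 at 14.2 RPKM, 3183 bases upstream of FAM120A at 1.26 RPKM. PR0009.204195, also at 14.2 RPKM, lay 4347 bases downstream of UBTD2, which was higher at 39.8 RPKM. ENSCJAG00000022867, at 10.6 RPKM, lay 9088 bases downstream of A6MKB5_CALJA, which was also higher at 15.9 RPKM. The lowest entry beside a gene, ENSCJAG00000033761 at 0.0346 RPKM, lay 1500 bases upstream of PFDN5, a subunit of the prefoldin chaperone, at 13.4 RPKM.

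Most entries, 121 of 161 (75.2%), were neither inside nor within 10 kb of a protein_coding entry of another gene accession. Of these, 73 were at 1 RPKM or more and their median was 2.50 RPKM. On 8 contigs no protein_coding entry was listed. For the 137 entries outside genes on a chromosome or contig with one, the nearest of another accession was a median of 45497 bases away. The quartiles were 16995 and 146447 bases. The 2 highest entries of all, at 280.1 and 192 RPKM, were among those far from genes of another accession. Protein_coding entries with an entry's own accession were left out here too.

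One transposon entry contained another listed RNA. PR0009.101960 (chr13:47972251-47973447, minus strand), 1197 bases at 0.126 RPKM, enclosed a miRNA entry of 116 bases on the same strand with the same gene accession, and this miRNA entry stood at 91.4 RPKM, 728-fold above the entry around it. The table gives the miRNA no name. It was found by searching all overlaps with the other classes, and no other transposon entry overlapped one of them.

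Gene accessions of the form PR0009 with a number, which are not Ensembl's, were carried by 36 of the 161 entries. These had a median of 8.58 RPKM with 26 (72.2%) at 1 RPKM or more. The 125 entries with an Ensembl accession had a median of 1.73 RPKM with 72 (57.6%) at that level. Among all entries of the table the share was 59.8%. The other classes were not split by the form of the accession, so the difference may not be particular to transposon entries. What the form stands for is not given in the sources used here.

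The same table also lists genes that hold transposons in check. Of 29 listed silencing genes 20 had an entry, with a median of 10 RPKM, and 19 were at 1 RPKM or more, beside 7786 of all 12200 named protein-coding genes, whose median was 2.44 RPKM. The highest were GTSF1 (57.4 RPKM), a factor of the piRNA pathway, MAEL (43.0 RPKM) and PLD6 (38.5 RPKM), both needed for piRNA production in mouse, and DDX4 (27.0 RPKM), a germ cell helicase. DNMT3A, a DNA methyltransferase, was at 0.661 RPKM.

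Genes that arose from transposons in evolution had a lower median. Of 50 listed, 15 had an entry, with a median of 1.01 RPKM and 8 at 1 RPKM or more. The highest were PNMA1 at 27.2, RTL6 at 7.47, ZBED5 at 3.62 and HARBI1 at 2.65 RPKM. Those under 1 RPKM were CENPB at 0.854, NYNRIN at 0.845, JRK at 0.840, THAP9 at 0.501, PNMA2 at 0.385, RAG1 at 0.0146 and ARC at 0.00733 RPKM. As for the tissue, the 4 spermatid markers with an entry, PRM1, TNP1, PRM2 and ODF1, ran from 479.7 to 7177 RPKM. Markers of meiotic germ cells were at 4.35 and 49.9 RPKM (2 genes). Of the 4 spermatogonia markers with an entry, DDX4 was at 27.0, DAZL at 21.6, GFRA1 at 0.854 and KIT at 0.290 RPKM. Of the somatic cells, Leydig cell markers were at 4.91 and 404 RPKM, Sertoli cell markers at 0.148 to 3.68 RPKM (3 genes) and the peritubular muscle gene ACTA2 at 19.4 RPKM. The blood and immune markers HBB and CD68 were at 38.1 and 0.913 RPKM, and neither of the endothelial markers had an entry matched by symbol. In RNA of whole tissue, fewer cells of a type and less RNA per cell cannot be told apart.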

How the data were processed

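The deposited RNA-seq table gives 1 RPKM value per transcript entry, with chromosome, strand, start, end and annotation. Per the labels' protocols, RNA-seq libraries kept the strand (directional protocol, TruSeq small RNA reagents) and started from total RNA. It was not checked whether the RPKM values counted reads by strand. Bowtie, TopHat and Cufflinks are named in the submitters' processing notes, without versions. The genome build, the length behind each RPKM and the treatment of reads with several mapping places are given in none of the sources used here, so near-identical copies cannot be told apart and coordinates are those of the table. RPKM times span of low entries showed no step of 1 read, so no depth was recovered.

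An entry was inside a protein_coding entry of another gene when wholly within its start and end, and beside one when within 10 kb without overlap. The gene around an entry is the smallest such protein_coding entry. Spans count both end bases. Placement was tested on simulated entries. LOC names were turned into symbols through the RefSeq table of calJac240_pri, used for names and gene order alone (6593 entries matched, 506 did not). No sequence of the entries was at hand, and the small RNA tables, which hold no positions, were not used. The members and lists were chosen with earlier results of these data known. Named entries were the 10 highest, the 5 lowest, the 3 longest and shortest, the 5 highest of each place class (an entry with neighbours on both strands counts in both) and the extreme ratios to a gene. Of the silencing and the transposon-derived genes, the 4 highest and those under 1 RPKM were named, and markers are given by range or by value. The remaining entries inside genes, the lowest entry beside a gene, ENSCJAG00000022867, the entries with a symbol, PR0009.359141 and those named with chromosomes, pairs and overlaps were chosen after their values were seen. Computation was in Python 3.11.15 with pandas 2.3.3 on numpy 2.4.6, rank correlations came from scipy 1.17.1 and plots from matplotlib 3.10.9.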

Additional observations from a re-analysis of the deposited data

How the results depend on the processing

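The 0 entries on the same strand and 16 on the opposite strand inside genes were unchanged with an overlap of at least 1 base or 50%, and 11 of the 16 were at 1 RPKM or more. Protein_coding entries with the same gene accession as the transposon entry were left out under each rule. The count of 98 entries at 1 RPKM or more was 136 at a limit of 0.1 RPKM and 60 at 5 RPKM. Entries with a neighbour on the same strand numbered 2, 5, 38 and 57 within 1, 5, 50 and 100 kb, and those with one on the opposite strand 1, 10, 50 and 65. With neighbours at 1 RPKM or more alone the numbers within 10 kb were 5 and 10, and the median log2 ratio to the neighbour, 0.29, was -1.01. The median of 2.92 RPKM was 0.900 RPKM on the plus strand alone. The share of entries on the plus strand, 37.9%, was 29.6% among entries at 1 RPKM or more. The median log2 ratio of 1.08 to the gene was 0.50 with the gene's entries summed. The values by strand, those among entries at 1 RPKM or more, the neighbour counts of 5 and 10 and the summed ratio come from alternatives chosen after seeing the data. Entries have no names, so sums per name were not run, and no same-strand gene of another accession held an entry. No paired analysis was possible because the table holds 1 column of values. Unknown depth leaves the lowest RPKM values without an error.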

Other observations

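Spans were often shared, 76 of the 161 transposon entries having the span of at least 1 other. Among entries on contigs, ENSCJAG00000033248 and PR0009.372133 both spanned 771 bases, on different contigs, and stood at 0.546 and 0.564 RPKM. Whether they are copies of the same sequence was not tested, since the table holds no sequence.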
